A study of Mus musculus with 16 samples.

Results

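The names described here are the 102 mouse microRNA arms numbered miR-6896 to miR-7092 that held 100 or more reads in total over 16 small RNA libraries. They were picked by number and by that summed read count alone, from 401 listed names in the number range and 2510 listed names in the whole series. The other 299 names in the range held 10761 reads between them. The 102 names held 88784.7 of 3.85412e+07 assigned reads, or 0.230%; counts are not all whole because some reads are shared between names. Just inside the limit lay miR-6939-3p and miR-6947-5p with 102 reads each, and just outside it miR-6968-3p with 99 and miR-6902-3p with 96. The 3p arm gave 65 of the 102 names and the 5p arm 37.

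The libraries came from C2C12, an established mouse myoblast line, here in a version labelled PAX7-negative that all groups share. Control cells (2 populations) and cells with a triple knockout of the miR-206 gene and both miR-1a genes, miR-1a-1 and miR-1a-2 (tKO, 2 clones), were sampled in growth medium with 20% fetal bovine serum (GM) and after 3 days in medium with 2% horse serum, when the cells are labelled myotubes (DM3). Each population or clone, called line 1 or line 2 below, gave 2 biological replicates per medium, so each of the 4 groups held 4 libraries. Both tKO lines are single clones, and DM3 differs from GM in serum and in days of culture as well as in differentiation state. RNA was pooled over all cells of a culture, so a change in the makeup of the culture and a change in the RNA of each cell cannot be told apart.

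Mirtrons are microRNA hairpins whose ends are cut by the spliceosome rather than by Drosha, the nuclease that frees most microRNA hairpins. In a plain mirtron the excised intron is itself the hairpin, and in a tailed mirtron the hairpin lies against one end of a longer intron whose other end is trimmed away. Many mouse names in this number range were annotated as mirtrons from deep sequencing, and mirtron arms at the 3′ end of an intron are known to end in AG and to carry bases added after transcription, often uridine.

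The gene models fit that description. Of the 102 names, 101 had an annotated hairpin, on 84 separate hairpins of 52 to 137 nt, and 17 hairpins gave both arms. An annotated intron held 81 hairpins, 80 ended at the last base of that intron, and 81 ended in AG. The hairpin filled the whole intron in 12 cases, and in the other 68 it began a median of 513 bases after the intron's first base, taken over the hairpins that end at the last base of an intron and start later. A RefSeq mature sequence was at hand for 89 names; those had 87 distinct seeds (bases 2 to 8), of which 2 were shared, CACCCTG by miR-7068-3p and miR-7018-3p and CCGGGAG by miR-7071-5p and miR-7034-5p.

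The reads fitted that description less well, and they fell into unlike kinds. Reads listed with fewer than 18 bases made up 84.8% of the reads of the 102 names (75321.7 reads, against 13463 of 18 bases or more), and 85.4% carried a listed mismatch to the hairpin. A single name, miR-6937-5p, held 42.6% of the reads. Because of this the names are called here by their number, and a change in a name is a change in the reads listed under it.

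The sequences below show the first kind, short reads with mismatches. Each mature sequence is from RefSeq (GRCm38.p6) with its seed in capitals, and each read is written with the bases listed as not matching the hairpin, or added at its 3′ end, in capitals. They are shown because these 4 names hold most of the short reads and because the reads do not spell the mature arm.

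miR-6937-5p mature: tAGCTGTAagggctgggtctgtgt
miR-6937-5p read (5647 reads): ctCtaagggctgggtcG
miR-6937-5p read (4639 reads): ctCtaagggctgggtc
miR-6937-5p read (4502 reads): agggctgggtcGgtCG
miR-7079-3p mature: tGACTTCTgttctctttccag
miR-7079-3p read (5802 reads): ggtGctgtaggctTT
miR-7007-5p mature: tCAGAAGAggcagtggaggagat
miR-7007-5p read (3170 reads): agtggCggagatggGC
miR-6921-3p mature: tGACTACTccttgcctctcag
miR-6921-3p read (1115 reads): cCccttgcctctcGG

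In the second kind most reads shown spell the mature arm and then further bases. In these reads the capitals mark the bases that follow the stretch equal to the annotated hairpin. They are shown because the same arm recurs with different last bases. The miR-7070-3p read is the exception: it leaves the mature sequence before its last base, and its capitals are bases that differ from the annotation, not shown to be added.

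miR-6944-3p mature: tAACTCTTcccttgtgccctcag
miR-6944-3p read (1616 reads): taactcttcccttgtgccctcagT
miR-6944-3p read (202 reads): taactcttcccttgtgccctcagC
miR-6944-3p read (168 reads): taactcttcccttgtgccctcagA
miR-7068-3p mature: tCACCCTGgactgactctcag
miR-7068-3p read (297 reads): tcaccctggactgactctcagT
miR-7068-3p read (85 reads): tcaccctggactgactctcagA
miR-6975-3p mature: tCTCTCCTttctcctcctag
miR-6975-3p read (86 reads): tctctcctttctcctcctagT
miR-7070-3p mature: cAGGCTCTccttccctccag
miR-7070-3p read (531 reads): caggctctccttccctccaAGT

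Sorted by the share of reads with 18 bases or more, 43 names lay under 10%, 34 between 10 and 80% and 25 at 80% or more. The 43 short-read names were 18 of the 3p arm and 25 of the 5p arm and held 79.9% of the reads. A median of 97.7% of their reads carried a mismatch, and a median of 0.889% of their reads (7.14% at most) lay in their own hairpin or at its end without mismatch. The 25 long-read names were 23 of the 3p arm and 2 of the 5p arm, held 12.5% of the reads, had a median mismatch share of 14.7%, and placed a median of 71.1% of their reads (7.35 to 92.7%) in their hairpin or at its end. The 34 names between held 7.59% of the reads, with a median of 29.2% placed. In 38 of the 102 names no read spelled the mature sequence exactly, and in 41 at least 90% of reads held a mismatch.

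The median share of reads with 18 bases or more was 21.7% over the 102 names and 84.6% over the 893 other names with 100 reads or more. Names under 10% made up 42.2% of the 102 and 29.5% of the others, and names at 80% or more 24.5% and 52.4%. The 3p names had a median share of 47.1% and the 5p names 2.56%. The 3 most abundant names were short-read names, while the 4th and 8th, miR-6944-3p and miR-7070-3p, were long-read names.

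**Figure D1:**
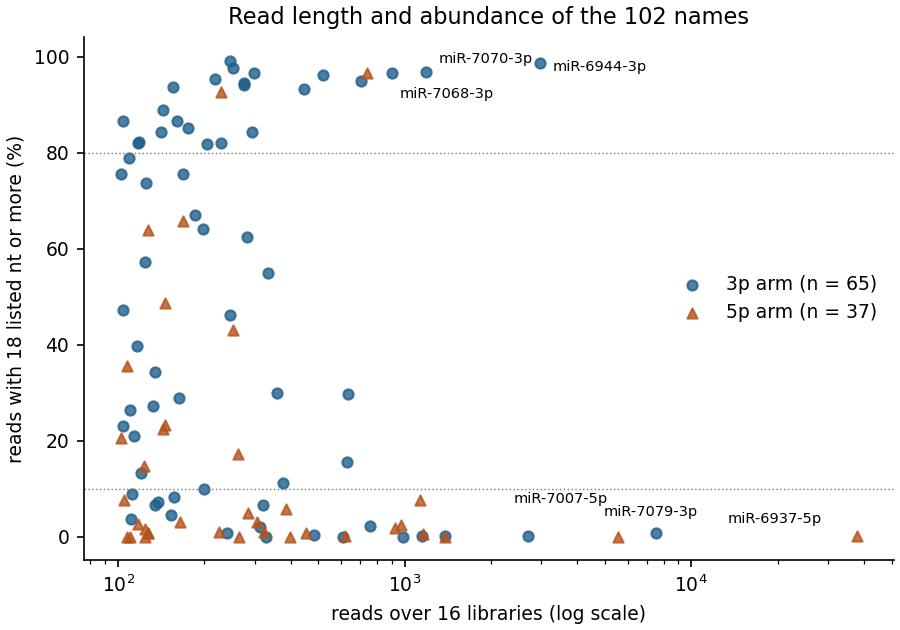
Each point is 1 of the 102 names, with its reads summed over 16 libraries (x axis, log scale) and the percentage of them listed with 18 nt or more (y axis); circles are 3p arms and triangles 5p arms, and the dotted lines mark 10 and 80%. The 3 most abundant names lie near 0%, and 23 of the 25 names at 80% or more are 3p arms.

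The most abundant name, miR-6937-5p, has its hairpin at chr12:28679325-28679389 on the plus strand (GRCm38), at the end of an intron of Adi1, which encodes a dioxygenase of methionine salvage. Of its 37851 reads, 0.156% had 18 bases or more, 99.6% held a mismatch and 3 spelled the mature sequence. Its abundant reads overlap one another, and joined by overlaps of 11 bases they give 1 stretch of 22 bases that contains 80.3% of its reads. In that stretch, below, the capitals mark the 13 bases shared with the 24-base mature sequence.

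miR-6937-5p joined reads: gctcTAAGGGCTGGGTCggtcg
miR-7079-3p joined reads: caggtgCTGTaggcttt
miR-7007-5p joined reads: agtggcGGAGATgggc
miR-6921-3p joined reads: ccCCTTGCCTCTCggc

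The same was done for the 7 other short-read names among the 10 with most reads. The longest stretch shared with the mature arm was 4 of 21 bases for miR-7079-3p, 6 of 23 for miR-7007-5p, 7 of 22 for miR-6974-3p, 11 of 21 for miR-6921-3p, 11 of 19 for miR-7003-3p, 12 of 19 for miR-7044-5p and 12 of 22 for miR-7051-5p. The joined stretch held 39.5% of the reads of miR-7003-3p and 74.5 to 86.2% of those of the other 6. The miR-7079 hairpin lies at the end of an intron of Rpl13, a ribosomal protein gene (chr8:123104975-123105043, plus strand), and the miR-7007 hairpin in Cpa3, a mast cell protease gene (chr3:20222290-20222359, minus strand). No read of 18 bases or more was listed under miR-7007-5p among its 5559 reads.

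Some of the short reads are spelled in other small RNAs. Short reads of the 102 names were looked up, by exact match of the whole read, in 3913 annotated transcripts. These were ribosomal, small nuclear, small nucleolar and similar RNAs. They included a class of 18S-overlapping non-coding transcripts, among them Gm42418, which overlaps an annotated 18S ribosomal RNA. Of the short reads of miR-6921-3p, 79.1% were found in that class, which was not split by transcript. Of those of miR-7083-5p, 85.7% were found in ribosomal RNA, and of those of miR-6931-5p, 92.5% in small nuclear or similar RNA. By contrast 0 of 37792 short reads of miR-6937-5p and 0 of 5559 of miR-7007-5p were found there, and over all names 3.83 to 7.77% of short reads per library were. Transcripts of 28S ribosomal RNA and the rest of the genome were not searched here, and the origin of the unmatched reads was not tested.

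The summed level of the 102 names was higher in DM3 than in GM in the control libraries, and most of the difference lay in reads under 18 bases. In CPM (reads per 1e6 reads assigned to microRNA names), reads under 18 bases summed to 843 ± 156 (SD, n = 4; range 646 to 1009) in control GM and 7971 ± 4656 (3614 to 14052) in control DM3. In tKO they summed to 1285 ± 812 (622 to 2470) in GM and 6425 ± 7150 (1648 to 17040) in DM3. The groups did not overlap in control and overlapped in tKO, where the smallest library, DM3 line 1 replicate 1 with 112792 reads, gave the highest value. No test was run on these sums, because the names were chosen by their read counts.

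Reads of 18 bases or more summed to 291 ± 81.6 (211 to 404) in control GM and 568 ± 132 (392 to 710) in control DM3. In tKO they summed to 301 ± 96.6 (233 to 443) in GM and 483 ± 109 (364 to 600) in DM3. The ranges of GM and DM3 overlapped in both genotypes, since the lowest DM3 library lay below the highest GM library. The share of the names' reads with 18 bases or more was 25.4% ± 2.63 in control GM, 7.83% ± 2.93 in control DM3, 20.8% ± 4.97 in tKO GM and 13.1% ± 9.33 in tKO DM3. Without miR-6937-5p the shares were 34.8, 16.8, 29.6 and 23.4% in that order. The split depends on the length limit: the share with 16 bases or more, with miR-6937-5p kept, was 36.9% in control GM, 34.3% in control DM3, 34.6% in tKO GM and 39.2% in tKO DM3.

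Short reads were also more common under all names in the same libraries. They made up 1.88 to 2.95% of all assigned reads in control GM, 4.76 to 12.8% in control DM3, 2.00 to 6.49% in tKO GM and 2.96 to 18.9% in tKO DM3. The library with the highest share of short reads under all names, tKO DM3 line 1 replicate 1, was also the one with the highest CPM of short reads of the 102 names (17040), and among tKO GM libraries line 1 replicate 2 was highest in both (2470 CPM). Depth differed by medium as well. Libraries held on average 3.62e+06 reads in control GM, 1.14e+06 in control DM3, 2.75e+06 in tKO GM and 2.13e+06 in tKO DM3. Within each control line and replicate, DM3 held fewer reads than GM. In tKO the same held except for line 1 replicate 2. The part of depth in these sums was not tested. The part of the library-wide share of short reads in the values of single names was not tested, beyond the fits restricted by length given further on.

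**Figure D2:**
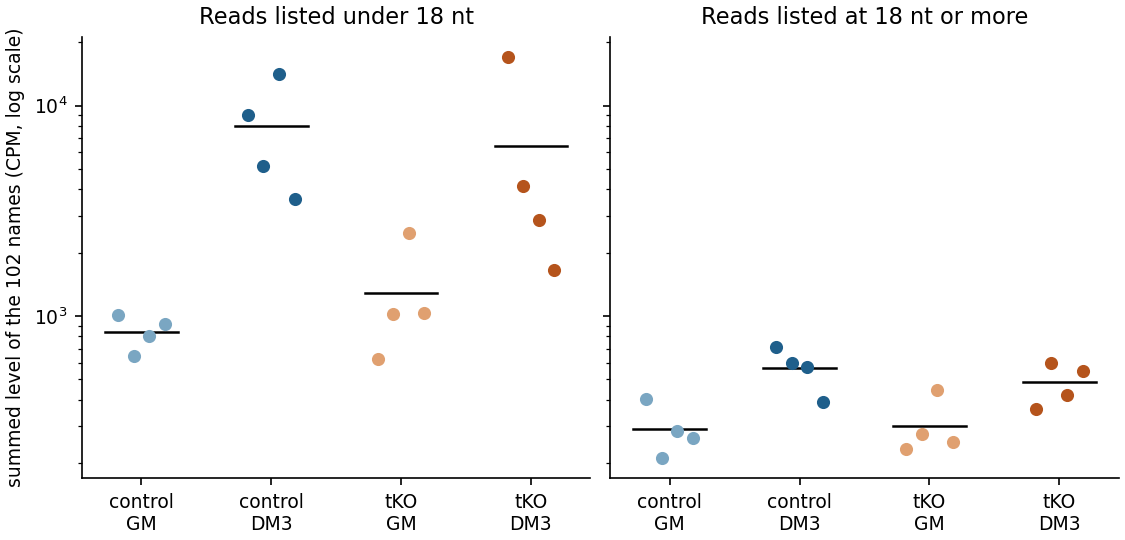
Summed level of the 102 names in each library, in CPM on a log scale, for reads listed under 18 nt (left) and at 18 nt or more (right); points are libraries, 4 per group, and bars are group means. Short reads lie between 646 and 1009 in control GM and between 3614 and 14052 in control DM3, while reads of 18 nt or more lie between 211 and 404 and between 392 and 710.

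Levels were compared name by name with edgeR's quasi-likelihood test over all 16 libraries, with Benjamini-Hochberg adjustment over the 807 names that passed the filter on low counts. Of the 102 names 80 passed and 22 did not; 34 of the 80 were short-read names, 22 lay between and 24 were long-read names. Values are listed below for lines 1 and 2 of replicate 1, then lines 1 and 2 of replicate 2. The SE given with a log2 fold change is its absolute value over the square root of the test's F. It was not estimated separately and need not match the p-value. A name that passed the filter through 1 high group was likely to differ, so the counts below describe the tested names only.

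In control cells 20 of the 80 tested names were higher in DM3 and 2 lower at an adjusted p under 0.05, where 15.9% of all 807 tested names were higher and 11.8% lower. Called in either direction were 27.5% of the 80 and 27.6% of all 807. The median log2 fold change over the 80 names was 0.61, against 0.02 over all 807. With libraries scaled by total count alone these medians were 1.01 and 0.39. With no filter beyond 1 read they were 0.10 over all 102 names and -0.19 over all 2274. Without control DM3 line 1 replicate 2 they were 0.38 over the tested names of the 102 and -0.04 over all tested names. Of the 20 higher names 16 were short-read names and 4 long-read names, and the 2 lower names were 1 of each. None of the 22 names between passed. The median log2 fold change was 1.59 in short-read names, 0.25 in those between and 0.33 in long-read names.

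In tKO cells 17 of the 80 were higher in DM3 and 2 lower, where 11.4% of all tested names were higher and 8.3% lower. The median was 0.33, against 0.01 over all tested names. With no filter beyond 1 read it was 0.19 over all 102 names, against -0.07 over all 2274. The 17 were 13 short-read and 4 long-read names, and the lower ones were 1 short-read name and 1 between. Called in both genotypes in the same direction were 14 higher names and 1 lower of the 80, where 9.67% of all 807 tested names were higher in both and 6.57% lower in both.

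**Figure D3:**
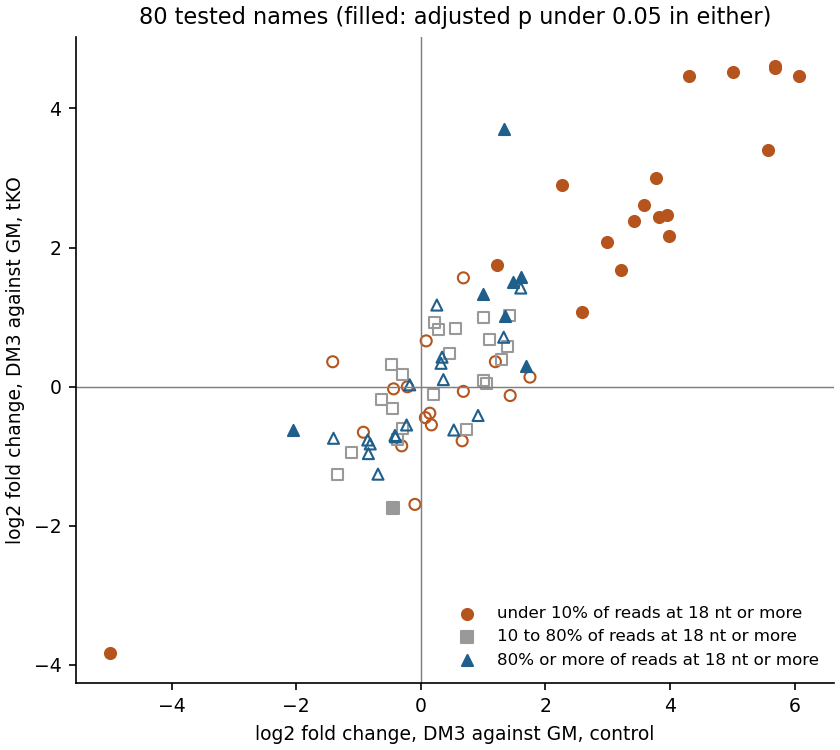
Log2 fold change of DM3 against GM in control (x axis) and tKO (y axis) for the 80 tested names, by the share of reads with 18 nt or more; filled symbols have an adjusted p under 0.05 in at least 1 genotype. The names above 2 in both genotypes are all short-read names, and miR-7043-3p lies at -4.99 and -3.84.

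Among the short-read names, miR-6937-5p stood at 414, 219.7, 314 and 281 CPM in control GM and at 5170, 2919, 9336 and 2109 in control DM3. In tKO it stood at 174, 403, 1183 and 396 in GM and 11508, 2656, 1240 and 768 in DM3. The control groups did not overlap; in tKO the lowest DM3 library, line 2 replicate 2, lay under the highest GM library, line 1 replicate 2. The rise was 3.58 on the log2 scale (SE 0.68, edgeR adjusted p = 6.06e-04) in control and 2.61 (SE 0.65, edgeR adjusted p = 0.00848) in tKO.

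The next name by reads, miR-7079-3p, did not pass in either genotype. It stood at 193, 144, 135 and 234 CPM in control GM and 532, 362, 396 and 249 in control DM3, a log2 fold change of 0.68 (SE 0.38, edgeR adjusted p = 0.195). Its tKO range was 137 to 305 in GM and 134 to 532 in DM3. Both media overlapped in tKO and did not overlap in control.

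The third, miR-7007-5p, stood at 27.3, 26.9, 52.6 and 42.0 CPM in control GM and 911, 578, 1068 and 345 in control DM3, and the groups did not overlap. It rose by 3.82 on the log2 scale (SE 0.58, edgeR adjusted p = 1.03e-04) in control and by 2.44 (SE 0.55, edgeR adjusted p = 0.00410) in tKO, where the ranges were 24.2 to 144 in GM and 119.7 to 1002 in DM3.

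The short-read name found in the 18S-overlapping class, miR-6921-3p, belongs to a hairpin in Srebf1, which encodes a regulator of lipid synthesis. It stood at 1.95, 4.74, 6.71 and 12.2 CPM in control GM and 621, 374, 874 and 178 in control DM3. It rose by 5.69 on the log2 scale in control (SE 0.76, edgeR adjusted p = 4.69e-05) and by 4.58 in tKO (SE 0.73, edgeR adjusted p = 3.57e-04), with every DM3 library of a genotype above every GM library.

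The largest log2 fold change in control, 6.08 (SE 1.05, edgeR adjusted p = 2.91e-04), was that of miR-6923-3p, whose 72-base hairpin fills an intron of Myh3, the embryonic myosin heavy chain gene of developing muscle (chr11:67099804-67099875, plus strand). It stood at 1.95, 0, 1.81 and 1.99 CPM in control GM and 189.5, 95.5, 258 and 37.1 in control DM3. However 2.25% of its 754 reads had 18 bases or more, and 1.86% lay in the hairpin or at its end. No RefSeq mature sequence was at hand for it, so no seed is given.

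The other short-read names with the largest rises were miR-6917-3p (host Erbb3, a receptor tyrosine kinase), miR-7076-5p (Ctrb1, a pancreatic protease), miR-6945-5p (Pdlim7, a cytoskeletal adaptor) and miR-7040-3p (Loxl3, a lysyl oxidase). Their log2 fold changes in control were 5.69, 5.58, 5.01 and 4.31, and in tKO 4.61, 3.40, 4.53 and 4.47. All 4 were short-read names with 93.5% or more of reads holding a mismatch. miR-6974-3p (3.94 and 2.47) and miR-7044-5p (2.27 and 2.90) also passed in both genotypes, while miR-7051-5p (0.68 and 1.56) and miR-7003-3p (-0.31 and -0.85) passed in neither.

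Most tKO rises of these names were smaller without DM3 line 1 replicate 1, the smallest library. Without it the log2 fold change in tKO was 1.5 for miR-6937-5p, 1.82 for miR-7007-5p, 3.62 for miR-6921-3p, 2.45 for miR-6923-3p, 3.54 for miR-6917-3p, 3.66 for miR-6945-5p, 3.31 for miR-7040-3p, 2.44 for miR-7076-5p and 2.25 for miR-7044-5p. Each of these names still passed, with an edgeR adjusted p of at most 0.0299. The rise of miR-6974-3p was not smaller there, and miR-7051-5p passed (1.83, edgeR adjusted p = 0.0454). In control, leaving out DM3 line 1 replicate 2 gave 2.94 for miR-6937-5p and 4.17 for miR-6945-5p, both still passing.

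One short-read name fell in both genotypes. miR-7043-3p stood at 7.81, 25.8, 5.62 and 8.25 CPM in control GM and at 0, 0, 0 and 0.668 in control DM3. In tKO it stood at 37.2, 27.2, 9.19 and 10.3 in GM and at 0, 2.71, 1.92 and 1.32 in DM3. No GM library overlapped a DM3 library within a genotype. The fitted change was -4.99 (SE 0.99, edgeR adjusted p = 9.53e-04) in control and -3.84 (SE 0.76, edgeR adjusted p = 0.00171) in tKO, and its size depends on the prior count because DM3 held so few reads. The control value was -4.15 without GM line 2 replicate 1 and -8.06 without DM3 line 2 replicate 2, the 1 control DM3 library with a read.

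The other lower name in tKO was miR-6966-3p, whose host is Narfl. Of its reads 15.5% had 18 bases or more, and 43.0% of its short reads were found in the 18S-overlapping class. It stood at 18.6, 6.11, 81.7 and 20.9 CPM in tKO GM and 35.5, 8.14, 8.64 and 6.82 in tKO DM3, and the groups overlapped. It fell by 1.74 on the log2 scale (SE 0.59, edgeR adjusted p = 0.0444). Without GM line 1 replicate 2, the library at 81.7, the value was -1.0 (edgeR adjusted p = 0.200). The call was lost without any 1 of 10 libraries and in 7 of 13 other alternatives, and with only reads without mismatch the value was -0.29.

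**Figure D4:**
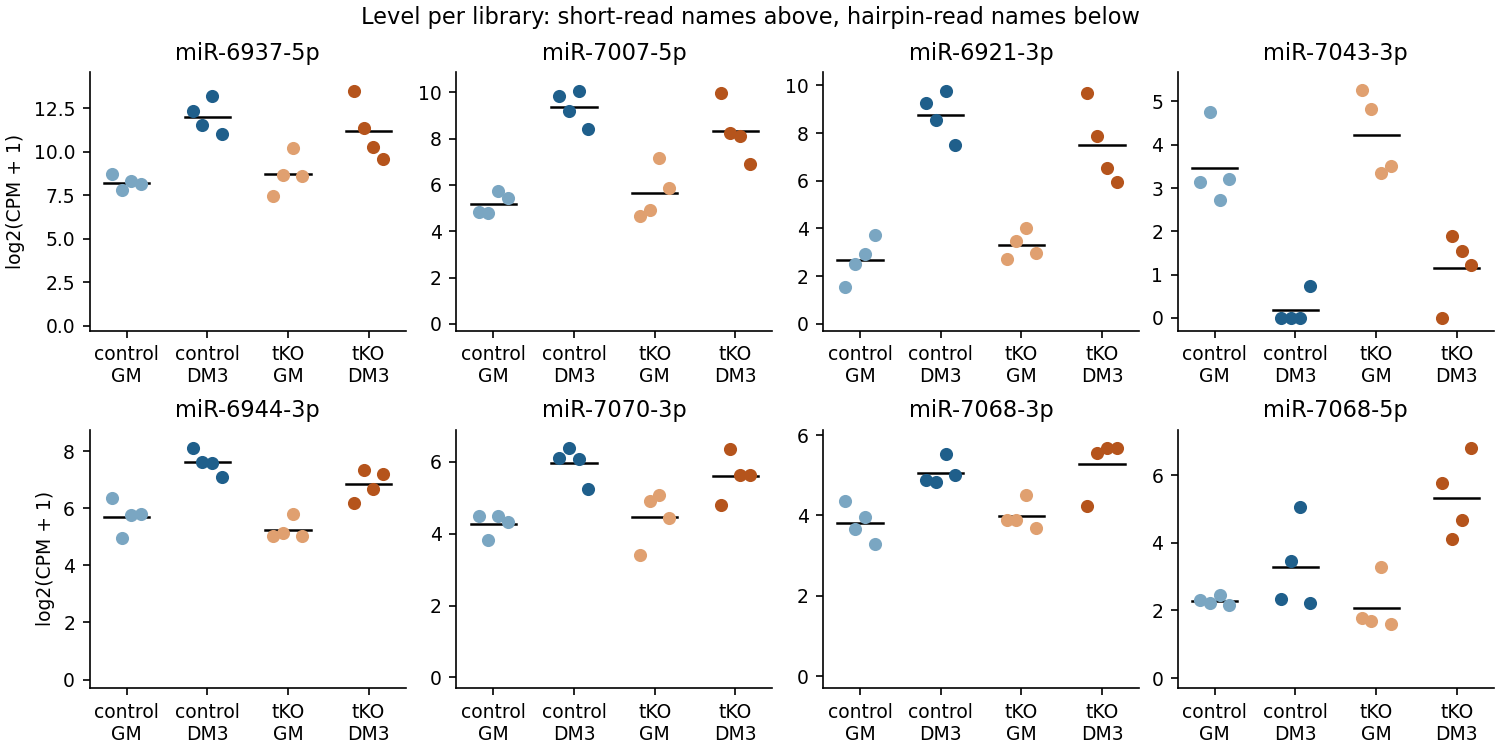
Level of 8 names in each library as log2(CPM + 1), with 4 libraries per group and bars at the group mean; the upper row holds short-read names and the lower row long-read names. Control DM3 lies above control GM without overlap for miR-6937-5p, miR-7007-5p, miR-6921-3p, miR-6944-3p, miR-7070-3p and miR-7068-3p, and below it for miR-7043-3p.

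The leading long-read name was miR-6944-3p. Its 96-base hairpin fills an intron of Dbn1, which encodes the actin-binding protein drebrin (chr13:55477681-55477776, minus strand), and 89.1% of its 2972 reads lay in the hairpin or at its end. It stood at 80.0, 30.0, 52.6 and 54.1 CPM in control GM and 274, 196, 190.0 and 136 in control DM3. In tKO it stood at 31.5, 33.9, 54.6 and 31.5 in GM and 70.9, 159, 101 and 146 in DM3. Every DM3 library lay above every GM library of its genotype. It rose by 1.48 (SE 0.37, edgeR adjusted p = 0.00563) in control and by 1.5 (SE 0.37, edgeR adjusted p = 0.00857) in tKO.

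Both arms of the miR-7068 hairpin, which fills a 74-base intron of Cherp (chr8:72470016-72470089, minus strand), passed in tKO in the fit of all reads. miR-7068-3p stood at 19.5, 11.6, 14.7 and 8.71 CPM in control GM and 28.2, 27.6, 45.3 and 31.1 in control DM3, and at 13.7, 13.9, 21.9 and 11.8 in tKO GM and 17.7, 46.1, 50.2 and 50.4 in tKO DM3. The fitted log2 fold change came to 1.33 (SE 0.38, edgeR adjusted p = 0.0174) in tKO and 1.00 (SE 0.39, edgeR adjusted p = 0.0612) in control, where 9 of 13 alternatives in processing called it; 2 of 13 lost the tKO call. The tKO call of the 3p arm was lost (edgeR adjusted p 0.0634 to 0.0880) without any 1 of GM line 2 replicate 1, GM line 2 replicate 2 and DM3 line 2 replicate 2. The 5p arm rose by 3.70 in tKO (SE 0.73, edgeR adjusted p = 0.00167), with 1.34 in control (SE 0.73, edgeR adjusted p = 0.186). Without tKO DM3 line 2 replicate 2 the tKO value was 2.57 (edgeR adjusted p = 0.00956).

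The reads of miR-7068-5p are longer than those of a microRNA. Of its 738 reads 671 had 60 bases or more, counted over the whole read with added bases. The commonest, 324 reads of 64 bases, is printed here because it runs from the first intron base through the loop into the 3p arm.

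miR-7068-5p mature: gTGAGGCTcagtatggggtgg
miR-7068-5p read (324 reads): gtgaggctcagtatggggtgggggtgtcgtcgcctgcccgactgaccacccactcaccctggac

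Reads of 60 bases or more stood at 0, 1.58, 3.26 and 2.14 CPM in control GM and 0, 5.02, 24.8 and 2.67 in control DM3. In tKO DM3 they stood at 26.6, 12.2, 22.7 and 109, of which the first rests on 3 reads and the last on 494. The libraries were size selected for inserts of 15 to 50 nt, so reads this long lie outside the stated range, and their level was not tested apart from the rest.

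Another long-read name that passed in control was miR-7070-3p, whose hairpin fills an intron of Fbxw9 (chr8:85062086-85062171, plus strand), with 1.35 in control (SE 0.41, edgeR adjusted p = 0.0180) and 1.02 in tKO (SE 0.40, edgeR adjusted p = 0.0823; 1.23 and 0.0300 without the smallest library). miR-6970-3p passed in both genotypes (1.61 and 1.58), and lost its call without any 1 of 4 libraries in control (GM line 1 and line 2 replicate 2, DM3 line 1 replicate 1 and line 2 replicate 2) and of 5 in tKO (GM line 2 replicate 1 and both lines of replicate 2, DM3 line 2 replicate 1 and line 1 replicate 2). miR-6940-3p passed in control with 1.69 (SE 0.60, edgeR adjusted p = 0.0425), stood at 0.30 in tKO, and lost its call in 10 of the 16 fits that leave out 1 library, among them those without each control DM3 library. miR-6975-3p, whose host Ddx39b encodes an RNA helicase, fell by 2.05 in control (SE 0.51, edgeR adjusted p = 0.00547), from 7.81, 5.80, 7.98 and 11.3 CPM to 0, 5.02, 2.16 and 2.34. The call of miR-7070-3p in control was lost (edgeR adjusted p 0.0501 to 0.0820) without any 1 of control GM line 2 replicate 1, line 1 replicate 2 and line 2 replicate 2, and control DM3 line 2 replicate 1 and line 1 replicate 2. Its commonest read, 44.7% of its 1188 reads, does not end where the hairpin ends, and no read spelled the RefSeq mature sequence. miR-6945-3p and miR-6933-5p, which also had many reads in their hairpins, did not pass: miR-6945-3p stood at 0.53 in control and -0.62 in tKO.

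Fitting only reads of 18 bases or more, scaled to their own totals, 29 of the names were tested among 503. In control 8 were higher and 1 lower, where 14.5% of all tested names were higher and 15.9% lower. In tKO 5 were higher and 1 lower, where 11.7% were higher and 13.5% lower. The higher names were miR-6944-3p (1.86 and 1.60), miR-7070-3p (1.72 and 1.14), miR-7068-3p (1.44 and 1.45) and miR-6970-3p (2.40 and 2.07) in both genotypes. In control miR-7070-5p, miR-6940-3p, miR-7018-3p and miR-6945-3p also passed, and in tKO miR-7068-5p (3.85). Lower were miR-6975-3p in control (-1.92) and miR-6952-3p in tKO (-1.40).

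Fitting only reads under 18 bases, 42 of the names were tested among 494. In control 16 were higher and 1 lower, where 18.8% of all tested names were higher and 6.88% lower. In tKO 13 were higher and 3 lower, where 13% were higher and 5.47% lower. With each library scaled to its own short reads the leading short-read names still passed: miR-6923-3p was at 5.56 and 3.55, miR-6921-3p at 5.08 and 3.94, miR-6937-5p at 2.96 and 1.96, and miR-7007-5p at 3.20 and 2.01. miR-7043-3p was at -5.56 and -4.13. With only reads without mismatch, which are few under miR-6937-5p, its tKO value was 1.30 and did not pass (edgeR adjusted p = 0.179). In short reads without the smallest library miR-6923-3p was at 2.35 in tKO.

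Between tKO and control cells no name passed in GM, where 1.12% of all tested names did, and none in DM3, where 0.867% did. The interaction of genotype and medium called none of the 102 names, and 0% of all tested names. At an unadjusted p under 0.05 edgeR gave 2, 5 and 4 of the 80 tested names in these 3 comparisons. The share of all names at that limit is not given here. DESeq2's test also called none of the 102 names after adjustment, where it called 0.836, 0.880 and 0% of all names. The smallest edgeR adjusted p-values were 0.426, 0.227 and 0.937. The lowest in DM3 was that of miR-7068-5p, with a log2 fold change of 2.09 (tKO above control). Without control DM3 line 1 replicate 2 it passed as the 1 call, where 0.58% of all names tested in that fit did. Without tKO DM3 line 1 replicate 1 there were 3 calls among 85 tested (miR-6921-3p, miR-6923-3p and miR-7083-5p, all lower in tKO), where 6.16% of all 860 names tested in that fit were called. So a change that passed in 1 genotype only is not shown to differ between genotypes.

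Known mirtrons outside the number range gave a reference. miR-877-3p, from a plain mirtron, held 7813 reads with 99.4% at 18 bases or more, and fell by 1.59 in control (SE 0.32, edgeR adjusted p = 0.00101) and by 1.64 in tKO (SE 0.32, edgeR adjusted p = 0.00165). miR-877-5p (2039 reads, 98.9%) and miR-702-3p (2750 reads, 99.2%) did not pass in either genotype, and miR-702-5p with 97 reads was not tested. The arms of miR-1224 were mostly short: 0.464% of 1940 reads of miR-1224-3p and 6.24% of 577 reads of miR-1224-5p had 18 bases or more, and miR-1224-5p rose by 2.10 in control (SE 0.71, edgeR adjusted p = 0.0331). So names with mostly long reads included rises, as in miR-6944-3p, and falls, as in miR-877-3p.

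The 3p arms at intron ends carried added bases. A read was placed at the intron end when at least 15 bases before any added base equalled the hairpin up to its last base, and 27 names had 50 or more such reads, 6621 in all. Of these reads 59.8% ended in a single T past the hairpin (uridine in the RNA) and 11.3% ended at the hairpin's last base. By name the share with a single T ran from 25 to 77.8% (median 54.9%), and it was the commonest end in 24 of the 27. The next exon began with a base other than T in 23 of the 27, and there T made up 40.2 to 89.7% of single added bases (median 75.3%), against 66.3 to 81.5% in the 4 where it began with T.

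In miR-6944-3p, with 2387 such reads, 68.0% ended in a single T, 8.46% in C, 7.16% in A and 5.19% with no added base. The share with a T ranged from 55.6 to 63.6% over control GM libraries and 67.6 to 77.2% over control DM3 libraries, and from 52.9 to 76.0% and 68.9 to 75.0% in tKO. Over the other 26 names it was 54.3 to 60.6% and 53.8 to 68.0% in control, and 52.2 to 55.4% and 53.8 to 60% in tKO, so the media overlapped in both genotypes. Over all 27 names together it was 56.6 to 59.2% and 61.9 to 70.9% in control, and 52.4 to 60% and 60.3 to 64.3% in tKO, with no overlap in either. miR-6944-3p gave 582 and 592 of these reads in control GM and DM3 and 309 and 904 in tKO, against 1432 and 520, and 1255 and 1027, from the other 26 names. The highest tKO DM3 values of these 3 ranges all come from line 1 replicate 1, the smallest library, and rest on 3 of 4 reads of miR-6944-3p, 6 of 10 of the other names and 9 of 14 of all 27; without it the highest was 73.3% for miR-6944-3p and 63.5% over all 27. No test was run on these shares, since the names were chosen for their reads at the end.

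**Figure D5:**
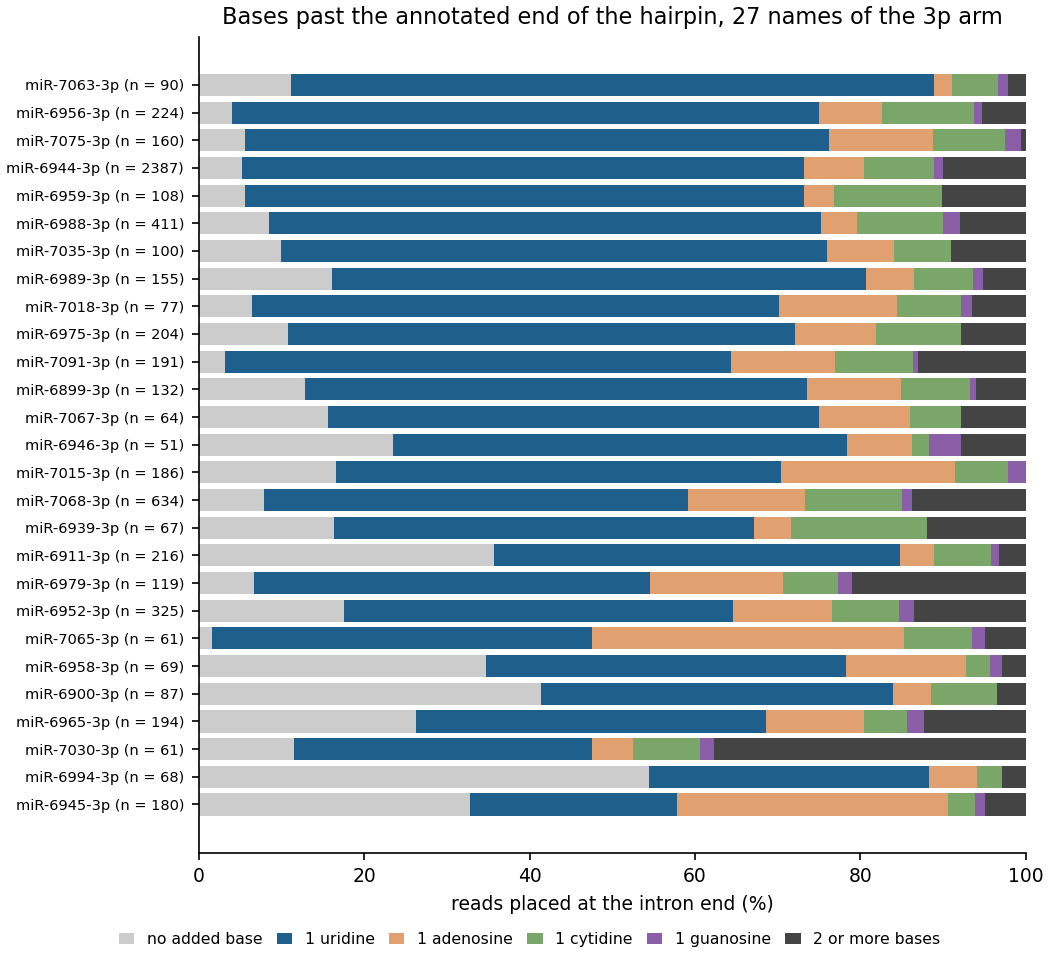
Share of reads, for each of 27 names of the 3p arm with 50 or more reads at the intron end, that carry no added base, 1 uridine, 1 of the other bases, or 2 or more bases past the annotated hairpin (x axis, percent; n in parentheses is the number of reads). Single uridine is the commonest end in 24 of the 27, with 25 to 77.8% of reads.

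The cells were checked by other microRNAs in the same libraries. miR-206-3p, one of the deleted microRNAs, averaged 1156 CPM in control GM and 34361 in control DM3, against 6.79 and 21.8 in tKO, and miR-133a-3p, a muscle microRNA, 8.87 and 1586 in control against 3.82 and 345 in tKO. In the same order miR-1a-3p, also deleted, averaged 5.27 and 109 against 1.39 and 3.00, and miR-133b-3p 2.94 and 494 against 0.697 and 93.4. Other muscle microRNAs were not all lower in tKO. miR-486a-5p averaged 38.4 and 82.6 in control against 45.1 and 69.5 in tKO, miR-486b-5p 125 and 263 against 141 and 164, and miR-499-5p 2.36 and 4.36 against 3.09 and 8.01. Of 6 microRNAs of blood cells and serum, miR-142a-5p was at 0 in every library, miR-150-5p averaged 1.58 to 5.44 CPM by group and the other 4 at most 1.56. miR-124-3p, of neurons, was at 0. miR-122-5p, of liver, averaged 20.4 and 37.9 CPM in control and tKO GM and 2.02 and 4.13 in DM3, miR-126a-3p, of endothelium, 8.18 to 20.5 by group, and miR-200c-3p and miR-141-3p, of epithelium, at most 6.64. Their part in the results above was not tested. Depth ranged from 112792 to 6543570 reads, so 3 reads stand for 0.458 to 26.6 CPM; intervals for the lowest levels would be wide, and cultures of 1 line are not independent of each other.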

How the data were processed

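The deposited tables hold, per the labels, small RNA reads from 16 C2C12 libraries made with the NEBNext kit. The authors assigned reads to microRNA names, and the files list expected counts (a read shared by names is split) for each sequence with its mismatches and added 3′ bases. The submitters' processing notes name cutadapt 1.15, STAR 2.5.4 and mm10; the version of the assigning tool is not given in the sources used here. Per the labels' protocols, inserts of 15 to 50 nt were selected.

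Counts were summed per name after dropping mismatch notes. A name that was never listed with an exact mature read was joined to its parent name where that had one (2510 names became 2274), and sums were rounded. They were tested with edgeR 4.0.16 in R 4.3.3 (robust quasi-likelihood fit, TMM, 1 coefficient per group, filterByExpr with a minimum count of 10), and p-values were adjusted over all 807 tested names. Alternatives were DESeq2 1.42.0, other scalings, filters and blocks, limits on read length and mismatches, and leaving out each library; some of these were added after seeing the data (both limits together, library sizes from long reads, and sums without miR-6937-5p or the smallest library). Simulated data with known changes were used to test the script. Hairpins and introns came from GENCODE on GRCm38, and mature sequences from RefSeq. Named were the 10 names with most reads, up to 5 changed names per direction and comparison, the 6 with most reads of 18 nt or more in their hairpin, the names beside the limit of 100 reads and a list of known mirtrons. miR-6940-3p, miR-6952-3p, miR-6970-3p, miR-6990-5p, miR-7018-3p, miR-7070-5p and miR-7083-5p were named after their values were seen. Also outside these rules, miR-6931-5p was named for its short reads found in other small RNAs, and miR-7071-5p and miR-7034-5p for their shared seed. The names and lists were chosen with earlier results of these data known. Where 2 libraries from different groups carried one replicate number (48 pairs), their deviations from the group means correlated at 0.090 on average (range -0.405 to 0.561), against -0.085 where the numbers differed; since not every pair correlated above 0.1, the numbers were not taken to pair the libraries. Lines are shared between media per the labels, with a mean of 0.106 over 16 pairs of one line (-0.098 for different lines). Because deviations were taken from group means, the second mean in both checks lies near the negative of the first by construction. It is therefore no separate comparison. A fit with line and replicate as blocks was an alternative.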

Additional observations from a re-analysis of the deposited data

Results flagged for a closer look

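In 15 of 104 groups of 4 libraries checked, 1 library lay far from the other 3. About 1 in 20 would be expected for independent checks on normally distributed values. These checks share libraries and names, so the count cannot be set against that rate. Of the 15, 9 are tKO DM3 line 1 replicate 1, the smallest library. There the 102 names summed to 17404 CPM, against 2195 to 4748 in the other 3, and their short reads to 17040 against 1648 to 4148. In the same library miR-7044-5p stood at 372 CPM (others 63.3 to 113), miR-6923-3p at 514 (20.5 to 38.0), miR-7076-5p at 160 (9.91 to 33.9), miR-6945-5p at 195 (16.9 to 40.7), miR-7040-3p at 151 (5.94 to 27.1) and miR-6966-3p at 35.5 (6.82 to 8.64). miR-7068-3p was low there, at 17.7 (46.1 to 50.4).

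In tKO GM line 1 replicate 2, miR-6944-3p stood at 54.6 CPM (others 31.5 to 33.9), miR-7044-5p at 25.3 (10.9 to 12.8) and miR-7068-5p at 8.68 (2.00 to 2.42). In control GM line 2 replicate 1, miR-6923-3p was at 0 (1.81 to 1.99) and miR-7043-3p at 25.8 (5.62 to 8.25). In control DM3 line 2 replicate 2, miR-7043-3p stood at 0.668, and at 0 in the other 3. The smallest library's part in the comparisons is given with the alternatives below.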

How the results depend on the processing

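The count of changed names between DM3 and GM in control, 22, of 80 tested, was 12 of 24 with a filter of 50 reads in 4 libraries, 9 of 29 with reads of 18 nt or more, 9 of 27 without mismatched reads and 8 of 24 with both limits; the tKO count, 19, was 14, 6, 5 and 5. Of all names tested 34.1, 30.4, 31.9 and 30.8% were called in control (27.6% in the fit of all reads) and 29.3, 25.2, 24 and 27.1% in tKO (19.7%). With the strict filter the 12 and 14 calls were 50 and 58.3% of the names tested here. Leaving out 1 library at a time gave 20 to 24 in control and 15 to 22 in tKO. Of all names tested in those fits 18.4 to 30.6% were called in control and 12.2 to 18.2% in tKO. Without tKO DM3 line 1 replicate 1 the counts were 23 and 22 of 85 (27.1 and 25.9%), where 30.6 and 16.3% of all names were called. Between tKO and control in DM3 the count, 0, was 1 with no filter (miR-7068-5p; 0.616% of all names), 1 with short reads without the smallest library (miR-7083-5p; 0.871%) and 0 to 3 with 1 library left out: 3 without tKO DM3 line 1 replicate 1 (miR-6921-3p, miR-6923-3p and miR-7083-5p, all lower in tKO) and 1 without control DM3 line 1 replicate 2 (miR-7068-5p). The cause was not tested. With a replicate block the counts were 22 and 20 (27.5 and 25% of the names tested here), where 29.9 and 20.8% of all names were called. With the line as well they were 24 and 21 (30 and 26.25%), where 34.0 and 23.9% of all names were. Neither block moved a count by over 1.5 times.

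At a limit of 16 nt the shares of long reads were 36.9, 34.6, 34.3 and 39.2% in control GM, tKO GM, control DM3 and tKO DM3. At the limit of 18 nt, without miR-6937-5p, they were 34.8, 29.6, 16.8 and 23.4%. Uncalled changes that switched sign were miR-7079-3p in control (-0.0029 in short reads without the smallest library) and in tKO (0.26 by total counts, 0.18 with the strict filter, 0.068 with only the groups compared, 0.012 with names as listed, 0.39 with library sizes from long reads; -0.47 to 0.17 with 1 library left out), miR-7003-3p in control (0.13 by total counts, 0.24 with library sizes from long reads) and miR-6933-5p with 1 library left out (-0.084 to 0.52 in control, -0.020 to 0.72 in tKO). Of the called long-read names, miR-7070-3p, miR-6970-3p and miR-6940-3p in control lost their call without each of 5, 4 and 10 libraries, and miR-6970-3p and miR-7068-3p in tKO without each of 5 and 3. miR-6966-3p, with mostly short reads, lost it in tKO without each of 10, and miR-6990-5p without each of 5. The tKO value of miR-6990-5p, 1.76 with all reads, switched sign to -0.68 with reads of 18 nt or more (edgeR adjusted p = 0.610). With reads under 18 nt it was 1.91 (edgeR adjusted p = 0.0309). Depth limits the smallest library, where 3 reads stand for 26.6 CPM.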
